A study of Mus musculus with 8 samples.

Results

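Major urinary proteins (MUPs) are small secreted lipocalins that the mouse liver makes in bulk. They pass from blood to urine, where they bind and slowly release volatile pheromones, and some act as scent signals themselves. The liver genes are known to be higher in males than in females. Pulsatile growth hormone acting through STAT5b, androgens, glucocorticoids and thyroid hormone are known to raise them. The 9 genes described here are Mup1, Mup3, Mup5, Mup7, Mup13, Mup15, Mup17, Mup20 and Mup21, out of 24662 rows in the first of the deposited tables and 27261 in the second. They were selected on their gene names with results of both contrasts below already known, so their levels and differences are a description and carry no test.

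Liver RNA was measured in 8 libraries, 2 per group, from mice given adeno-associated virus of serotype 6 (AAV6). One arm used vectors with the cytomegalovirus (CMV) promoter, which is not limited to a cell type, and there AAV6-CMV-NC control replicates 1 and 2 were compared with AAV6-CMV-shThbs2 replicates 1 and 2. The other used the promoter of α-smooth muscle actin (αSMA), a gene of activated stellate cells, and there AAV6-αSMA-NC replicates 3 and 4 were compared with AAV6-αSMA-shThbs2 replicates 3 and 4. The short hairpin RNA shThbs2 targets Thbs2, the gene of the matrix protein thrombospondin-2. All groups carry a vector of the same virus serotype, and no group without virus was analysed here. The sources used here do not give the sex, strain, age or other treatments of the mice, or the time after virus. Biomarker Technologies read the CMV libraries (HiSeq2500) and Frasergen the αSMA libraries (DNBSEQ-T7), so effects of vector, sequencer and company cannot be told apart. Values are FPKM, fragments per kilobase of transcript scaled to the library, and comparisons were made only within a table.

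Messenger RNA of Thbs2 was lower in the knockdown libraries of both arms. With the CMV vector it stood at 1.27 and 0.922 FPKM in the controls and 0.695 and 0.614 with shThbs2, and in the αSMA arm at 1.37 and 1.47 against 0.85 and 1.14. In the CMV arm it averaged under 1 FPKM and was left untested. Its log2 change was −0.34 there and −0.28 in the αSMA arm, beside medians of 0.03 and −0.16 for all features. Of all features, 17.5% and 46.2% were lower without overlap. All 14 hepatocyte markers were detected in both arms. Their summed FPKM was lower with shThbs2 in the CMV arm, where it ranged from 66050 to 70409 against 87464 to 90627 in the controls. By value 6 of the 14 were higher there, and limma called 0 at an adjusted p under 0.05. The median log2 change of the 14 was −0.15, beside 0.03 for all features. With the αSMA vector the sums overlapped, from 75832 to 100044 against 67233 to 86564. Limma called 5 of the 14 higher and 2 lower there, beside 13.3% of all features higher and 22.8% lower. The 5 cholangiocyte markers summed to 45.1 and 52.5 FPKM with shThbs2 against 68.1 and 97.3 in the CMV controls, and to 118 and 201 against 225 and 316 in the αSMA arm. Summed pancreas acinar markers went from 13.5 and 10.7 FPKM to 36.6 and 35.5 in the αSMA arm, where both tested, Cela1 and Cela2a, rose. Y-linked Ddx3y, Uty, Kdm5d and Eif2s3y were detected in all 8 libraries. Mitochondrial genome transcripts held 12.2% and 12.1% of the FPKM sum in the αSMA controls and 23.1% and 24.6% with shThbs2, and the FPKM sum of the whole table was 1.33-fold higher with shThbs2. The part of these shifts in the Mup results was not tested. In bulk tissue, fewer cells of a type and less RNA per cell cannot be told apart.

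The 9 genes lie in a single cluster on chromosome 4 (chr4:59956804-62150863, GRCm38). GENCODE annotates 22 protein-coding Mup genes there and 0 other protein-coding genes between them. By coding sequence the 9 fall into 2 classes. Mup1, Mup7, Mup13, Mup15 and Mup17 are near-identical, with coding identity between 98.34% and 99.45% over their 10 pairs, and each is at least 98% identical to 15 other Mup genes. Mup3, Mup5, Mup20 and Mup21 diverge from them and from each other, with 82.16% identity between Mup3 and Mup7 as the lowest pair of the 9 and 94.77% between Mup3 and Mup21.

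The same 60 coding bases are printed for each gene because they show how little separates the near-identical genes. Capitals mark bases that differ from Mup15, and the bases are coding positions 212 to 271 of Mup1, Mup5, Mup7, Mup13, Mup15 and Mup17, 215 to 274 of Mup20 and Mup21, and 224 to 283 of Mup3.
Mup15: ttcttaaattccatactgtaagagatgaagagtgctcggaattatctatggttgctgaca
Mup1: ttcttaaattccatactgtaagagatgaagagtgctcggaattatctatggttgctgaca
Mup13: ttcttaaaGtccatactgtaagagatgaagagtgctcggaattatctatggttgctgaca
Mup7: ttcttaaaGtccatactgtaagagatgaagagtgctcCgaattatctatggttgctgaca
Mup17: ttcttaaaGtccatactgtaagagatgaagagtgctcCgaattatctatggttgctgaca
Mup5: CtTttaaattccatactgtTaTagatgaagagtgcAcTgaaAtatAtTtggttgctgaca
Mup20: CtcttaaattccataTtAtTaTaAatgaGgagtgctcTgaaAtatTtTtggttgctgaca
Mup21: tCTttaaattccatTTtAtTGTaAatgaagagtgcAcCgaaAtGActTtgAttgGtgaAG
Mup3: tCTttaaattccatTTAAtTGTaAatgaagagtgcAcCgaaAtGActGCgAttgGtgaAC
Over this stretch Mup1 equals Mup15, Mup13 differs at 1 base, and Mup7 and Mup17 are alike and differ at 2. Mup5 differs from Mup15 at 9 bases, Mup20 at 11, Mup21 at 19 and Mup3 at 21.

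How far a value belongs to a single gene follows from how much of its transcript no other gene holds. Of the 100-base windows of its GENCODE transcripts, 97.8% of Mup3, 98.7% of Mup5 and 95.5% of Mup21 were found in no other gene. For Mup20 it was 61.2%, and 38.8% of its windows were shared with the pseudogene Mup-ps19. Among the near-identical genes the share was 44.3% for Mup1, 40.6% for Mup17, 23.9% for Mup7, 16.4% for Mup13 and 2.66% for Mup15. Mup15 shared 67.8% of its windows with Mup2, and Mup22 and Mup19, which are not among the 9, had 0% of their own. The sources used here do not say how reads that match several genes were assigned, so single values of the near-identical genes are uncertain, while Mup3 and Mup21 and the sum over the near-identical genes are less so.

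**Figure D1:**
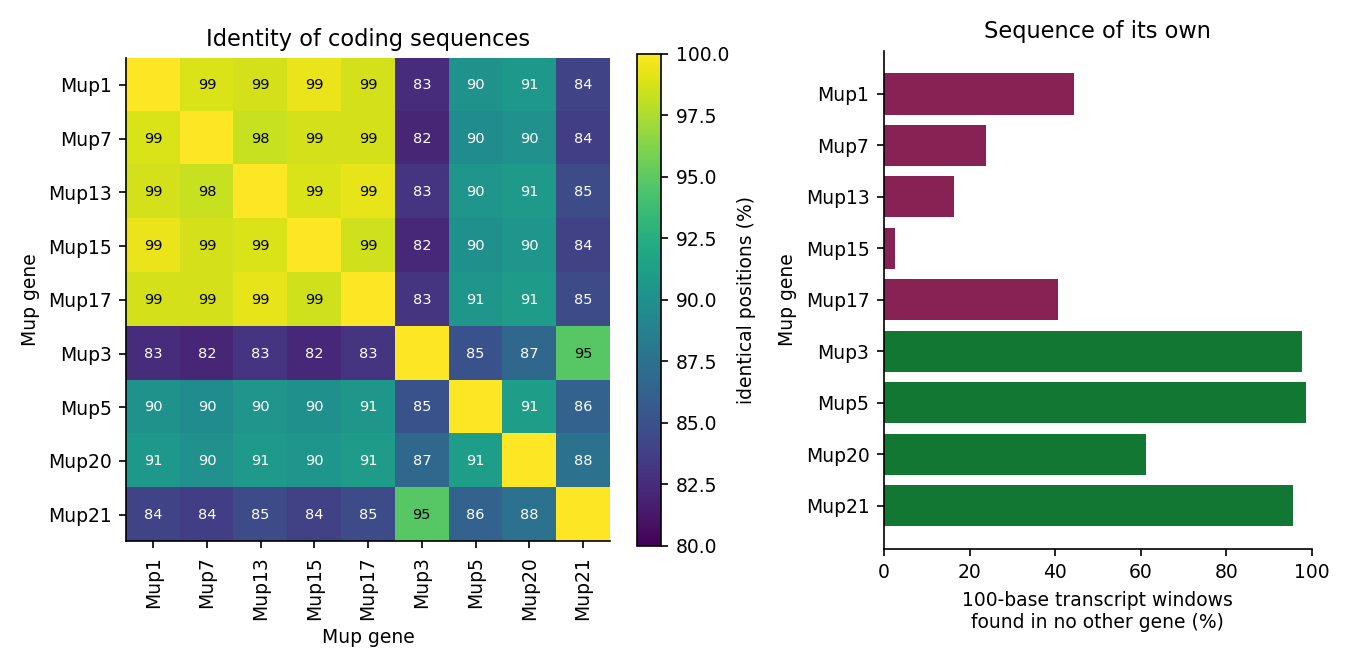
Left, identical positions (%) between the coding sequences of each pair of the 9 Mup genes; right, the share (%) of each gene's 100-base transcript windows found in no other gene, with near-identical genes in purple and divergent genes in green. The 5 near-identical genes form a block at 98% to 99%, and Mup15 has 2.66% of windows of its own against 97.8% for Mup3.

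RefSeq gives promoters (GRCm38.p6) for 5 of the 9 genes. The 250 bases before RefSeq's annotated start are printed for 2 genes of each class, because the genes of each pair are alike. Capitals mark the motif TATATAA, the letters of a TATA box, and all 4 are on the minus strand, at chr4:61439705-61439954 for Mup15, chr4:61595833-61596082 for Mup17, chr4:62087318-62087567 for Mup3 and chr4:62150842-62151091 for Mup21.
Mup15: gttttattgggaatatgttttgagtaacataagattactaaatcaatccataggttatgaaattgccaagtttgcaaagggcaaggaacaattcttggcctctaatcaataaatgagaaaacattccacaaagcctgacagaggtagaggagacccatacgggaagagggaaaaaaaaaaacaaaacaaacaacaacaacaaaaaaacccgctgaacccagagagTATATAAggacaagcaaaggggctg
Mup17: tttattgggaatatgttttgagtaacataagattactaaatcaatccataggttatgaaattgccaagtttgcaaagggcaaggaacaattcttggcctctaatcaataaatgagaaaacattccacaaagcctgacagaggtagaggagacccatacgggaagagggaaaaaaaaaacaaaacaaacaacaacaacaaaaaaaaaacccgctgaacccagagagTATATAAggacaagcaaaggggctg
Mup3: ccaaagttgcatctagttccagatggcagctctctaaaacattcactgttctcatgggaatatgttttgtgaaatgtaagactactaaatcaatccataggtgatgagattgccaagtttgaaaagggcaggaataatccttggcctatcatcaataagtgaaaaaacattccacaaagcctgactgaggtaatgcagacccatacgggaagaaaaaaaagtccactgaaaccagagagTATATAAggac
Mup21: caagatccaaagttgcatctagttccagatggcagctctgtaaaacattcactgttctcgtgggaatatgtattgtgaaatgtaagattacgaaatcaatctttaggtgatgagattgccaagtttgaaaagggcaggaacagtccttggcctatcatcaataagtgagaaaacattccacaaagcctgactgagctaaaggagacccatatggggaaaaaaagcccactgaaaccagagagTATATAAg
The promoters of Mup15 and Mup17 were 97.63% identical and those of Mup3 and Mup21 89.06%, while the pairs between them reached at most 59.6%. Gaps count as differences here, and the windows are offset. TATATAA begins 25 bases before RefSeq's start of Mup15 and Mup17, 11 before that of Mup3 and 8 before that of Mup21. For these genes RefSeq's start lies inside the gene as GENCODE places it, and so does TATATAA. Mup15 and Mup3 had 177 identical columns in an alignment of 297 for windows of 250 bases. The lower values between the classes therefore do not measure how alike the aligned bases are. The fifth promoter, that of near-identical Mup7, was 36.72% identical to Mup15 and 37.6% to Mup17 over the whole window. To Mup3 it was 47.96% and to Mup21 45.21% identical. Its window lies further upstream, and its end runs nearly base for base like the beginning of the Mup15 window. The Mup7 values therefore depend on where the windows lie and do not place Mup7 in or outside a class. TATATAA, searched on both strands, was in the promoters of 4 of these 5 genes and of 11 of 14 Mup genes, against 3.02% of 32536 promoters. The letters TTCNNNGAA, the pattern that STAT5 binds, were in the promoters of 0 of the 5, against 7.04% of all. In the 250 bases before the annotated start of Mup7 neither pattern was found. That window ends before the place where TATATAA lies in Mup15 and Mup17, so the matching stretch of Mup7 was not searched.

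Among the CMV libraries, 8 of the 9 Mup genes were higher in both shThbs2 libraries than in both controls, and Mup5 was listed at 0 throughout. Over all 10916 features tested, 24.5% were higher in this way and 17.5% lower. The 9 genes' median log2 change on log2(FPKM + 1) was 2.33, beside 0.03 for all features. Limma called 1 of the 8 tested, Mup15, against 0.0183% of features, all of them higher and 0.0% lower. Nothing is read from these counts, since the genes were selected with this contrast known.

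The near-identical genes held the widest differences of the CMV arm. Mup15 (ENSMUSG00000096674, chr4:61435790-61439743), a urinary protein gene of the central repeat, was at 0.334 and 0.261 FPKM in the controls and 78.5 and 51.2 with shThbs2. Both knockdown libraries were far above both controls, a 218-fold ratio of group means (log2 change 5.63, limma SE 0.22). The ratio divides by control values under 1 FPKM. With 2.66% of its windows its own, the values of Mup15 may also hold reads of its near-identical relatives. Mup1 (ENSMUSG00000078683, chr4:60498012-60501960), known for a part in glucose metabolism as a circulating liver protein, was at 1.79 and 0.386 FPKM in the controls and 25.2 and 17.6 with shThbs2. The groups did not overlap, and the means differed 19.7-fold (log2 change 3.49, SE 0.35). Mup17 (ENSMUSG00000096688, chr4:61591929-61595871) was at 3.67 and 0 FPKM in the controls and 20.2 and 7.87 with shThbs2, so 1 control library had the gene listed at 0 (log2 change 2.67, SE 0.74, and 1.56 without that library).

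Mup13 and Mup7 started from higher control levels. Mup13 (ENSMUSG00000089873, chr4:61224307-61228286) was at 20.2 and 23.3 FPKM in the controls and 162 and 80.4 with shThbs2. Its controls lay close together, and the means differed 5.58-fold (log2 change 2.35, SE 0.32). Mup7 (ENSMUSG00000073842, chr4:60066469-60070475), the most abundant near-identical gene of the 9, was at 227 and 55.9 FPKM in the controls and 1173 and 279 with shThbs2. The lower knockdown library was close to the higher control, each group spread over 4-fold (4.05 and 4.20 between its libraries), and the log2 change was 2.33 with an SE of 0.83. Without control replicate 2 it was 1.33, and without shThbs2 replicate 1 it was 1.30.

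Among the divergent genes the CMV differences were smaller, and only Mup20 and Mup3 had levels above all 5 near-identical genes. Mup20 (ENSMUSG00000078672, chr4:62050234-62054158), which encodes darcin, the male pheromone that attracts females, was at 1571 and 1208 FPKM in the controls and 2725 and 2169 with shThbs2. Mup3 (ENSMUSG00000066154, chr4:62083476-62087342), an abundant liver MUP, was at 1634 and 850.5 in the controls and 2886 and 2083 with shThbs2. The groups of both genes stood apart, with means 1.76-fold higher for Mup20 (log2 change 0.82, SE 0.18) and 2.00-fold for Mup3 (1.06, SE 0.32). For Mup3 the log2 change was 0.58 without control replicate 2. Mup21 (ENSMUSG00000066153, chr4:62147932-62150863), the closest relative of Mup3, was at 25.8 and 19.2 FPKM in the controls and 80.6 and 45.1 with shThbs2, a 2.79-fold ratio (log2 change 1.40, SE 0.29). Mup5 (ENSMUSG00000058523, chr4:61831319-61835233), known from salivary and lacrimal glands, was listed at 0 FPKM in all 4 libraries. Of 10 salivary, lacrimal and nasal gland markers, 9 were likewise at 0, and the remaining Amy1 is also made by the liver.

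The order of levels was led by the same pair of divergent genes in both CMV groups. In the controls the order was Mup20, Mup3, Mup7, Mup21, Mup13, Mup17, Mup1, Mup15 and Mup5. Mup20 and Mup3 overlapped in range, as did Mup21 with Mup13 and Mup17 with Mup1, and the other neighbours were apart. With shThbs2 the order was Mup3, Mup20, Mup7, Mup13, Mup15, Mup21, Mup1, Mup17 and Mup5, with overlaps between Mup3 and Mup20, Mup15 and Mup21, and Mup1 and Mup17. Mup15 stood 8th in the controls and 5th with shThbs2.

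Summed over the 9 genes, FPKM in the CMV arm was 3484 and 2157 in the controls and 7151 and 4733 with shThbs2. Both knockdown sums were above both controls, a 2.11-fold ratio (log2 change 1.09, between 0.74 and 1.43 when 1 library was left out). The sum was 0.691% and 0.439% of all FPKM in the controls and 1.39% and 0.941% with shThbs2. Mup20 supplied 45.1% and 56.0% of it in the controls and 38.1% and 45.8% with shThbs2, and Mup3 46.9% and 39.4% against 40.4% and 44.0%. Mup7 supplied 6.51% and 2.59% in the controls and 16.4% and 5.90% with shThbs2. Mup15 moved from 0.00958% and 0.0121% to 1.10% and 1.08%. The plot of levels by library shows these values beside those of the αSMA arm.

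**Figure D2:**
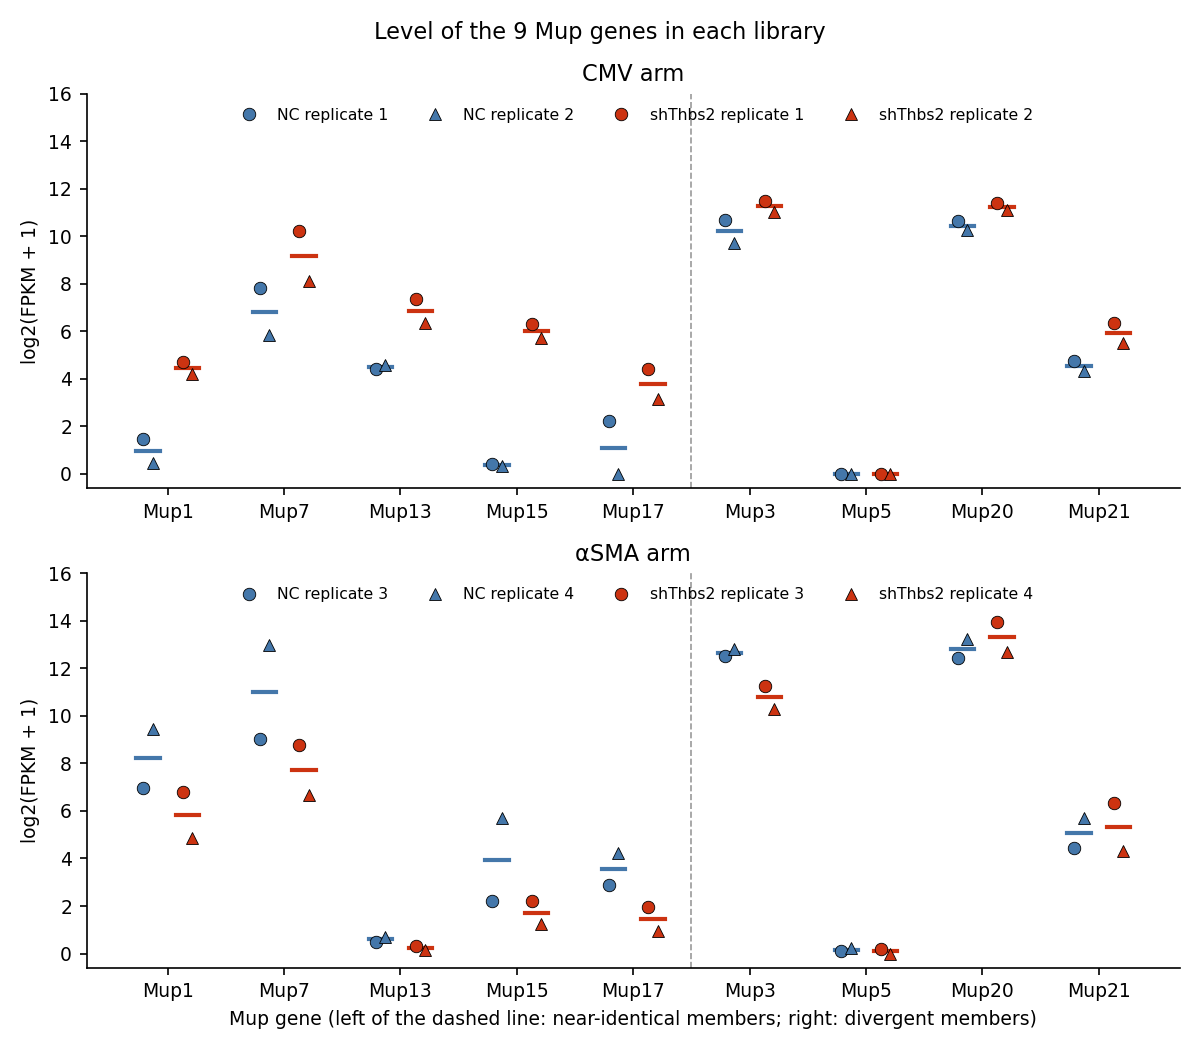
Level of each of the 9 Mup genes, log2(FPKM + 1), in the CMV arm (top) and the αSMA arm (bottom), with 1 point per library and short lines at the group means of 2 libraries. In the CMV arm the red knockdown points lie above the blue controls for 8 genes, and in the αSMA arm they lie below for 6, while Mup20 and Mup21 overlap there.

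Among the αSMA libraries, 6 of the 9 Mup genes were lower in both shThbs2 libraries than in both controls, and Mup5, Mup20 and Mup21 overlapped. Over all 13012 features tested, 46.2% were lower in this way and 28.7% higher. The 9 genes' median log2 change was −1.88, beside −0.16 for all features, and −0.48 without control replicate 4. Limma called 2 of the 7 tested, Mup3 and Mup17, both lower, against 22.8% of features lower, 13.3% higher and 36.1% in either direction. These counts too are a description of genes selected with the contrast known. Rescaling moved the background, which held 1729 higher and 2962 lower calls as deposited, 2514 and 1853 after median centring, 922 and 5903 at the same FPKM sum, and 1154 and 4726 at the same sum over nuclear genes other than Mup genes. The whole-table FPKM sum differed by 0.41 on the log2 scale, which is the shift that rescaling to the same sum removes. The background held 93 calls without control replicate 3, 59 without control replicate 4 and 1868 without shThbs2 replicate 3.

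Mup3, whose transcript is almost wholly its own, was at 5805 and 7150.1 FPKM in the αSMA controls and 2422 and 1257 with shThbs2. Both controls were well above both knockdown libraries, a 3.52-fold ratio of means (log2 change −1.88, SE 0.35). Leaving out any 1 library kept it between −2.36 and −1.41. Mup17 was at 6.32 and 17.6 FPKM in the controls and 2.83 and 0.93 with shThbs2, a 6.35-fold ratio of means (log2 change −2.10, SE 0.53). Mup13 was low in this arm, at 0.40 and 0.64 FPKM in the controls and 0.25 and 0.11 with shThbs2, and was left untested.

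The other near-identical genes of the αSMA arm turned on 1 control. Mup7 was at 513 and 8169 FPKM in control replicates 3 and 4 and at 439.8 and 99.8 with shThbs2. Control replicate 4 was 15.9-fold above control replicate 3, which itself lay just above shThbs2 replicate 3. The log2 change of −3.28 (SE 1.40) became −1.29 when control replicate 4 was left out and −5.28 when control replicate 3 was. Mup15 was at 3.60 and 51.0 FPKM in the controls and 3.59 and 1.38 with shThbs2, so that control replicate 3 and shThbs2 replicate 3 all but met. Its log2 change was −2.23 (SE 1.12), and −0.48 without control replicate 4. Mup1 was at 124 and 697 FPKM in the controls and 110.0 and 27.6 with shThbs2, again with only control replicate 4 far above the rest. Its log2 change was −2.39 (SE 0.98), and −1.15 without control replicate 4.

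Mup20 and Mup21 did not share the lower levels. Mup20 was at 5508 and 9553 FPKM in the αSMA controls and 15856 and 6486 with shThbs2. The highest and the second lowest library were both knockdowns, and the log2 change of 0.48 (SE 0.49) was −0.16 without shThbs2 replicate 3. Mup21 was at 20.7 and 51.5 FPKM in the controls and 79.6 and 19.0 with shThbs2, with the lowest and the highest library in the knockdown group. Its log2 change was 0.25 (SE 0.74), and it became −0.15 at the same FPKM sum, −0.01 at the same sum over nuclear genes other than Mup genes, −0.39 without control replicate 3 and −0.76 without shThbs2 replicate 3. Mup5 was at 0.07 and 0.17 FPKM in the controls and 0.13 and 0 with shThbs2, near the rounding step of the table.

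Levels in the αSMA controls ran from Mup20 through Mup3, Mup7, Mup1, Mup21, Mup15, Mup17 and Mup13 to Mup5. There Mup20 overlapped Mup3 in range, Mup3 overlapped Mup7, and Mup7 overlapped Mup1. Mup21 overlapped Mup15, and Mup15 overlapped Mup17. Mup1 and Mup21 were apart, as were Mup17 and Mup13, and Mup13 and Mup5. With shThbs2 the order was the same, and Mup20, Mup3 and Mup7 stood apart from each other. Overlaps there were between Mup7 and Mup1, Mup1 and Mup21, Mup15 and Mup17, and Mup13 and Mup5.

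The αSMA sum of the 9 genes was 11982 and 25690.4 FPKM in the controls and 18914 and 7892 with shThbs2. The groups overlapped, with a log2 change of −0.52 that became −1.07 when control replicate 3 was left out, 0.03 without control replicate 4, −1.15 without shThbs2 replicate 3 and 0.11 without shThbs2 replicate 4. What differed was the make-up of the sum. Mup20 held 45.97% and 37.2% of it in the controls and 83.8% and 82.2% with shThbs2, Mup3 48.5% and 27.8% against 12.8% and 15.9%, and Mup7 4.28% and 31.8% against 2.33% and 1.26%. Shares within the sum do not depend on how the library is scaled, but that of Mup7 depends on how reads of near-identical genes were assigned. The 9 genes leave out the abundant Mup22 and Mup10. Over all 26 Mup rows the αSMA sums were 42551 and 70645 FPKM in the controls and 35663 and 16748 with shThbs2. Those groups did not overlap (log2 change −1.17). The Mup20 shares of the CMV arm overlapped.

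**Figure D3:**
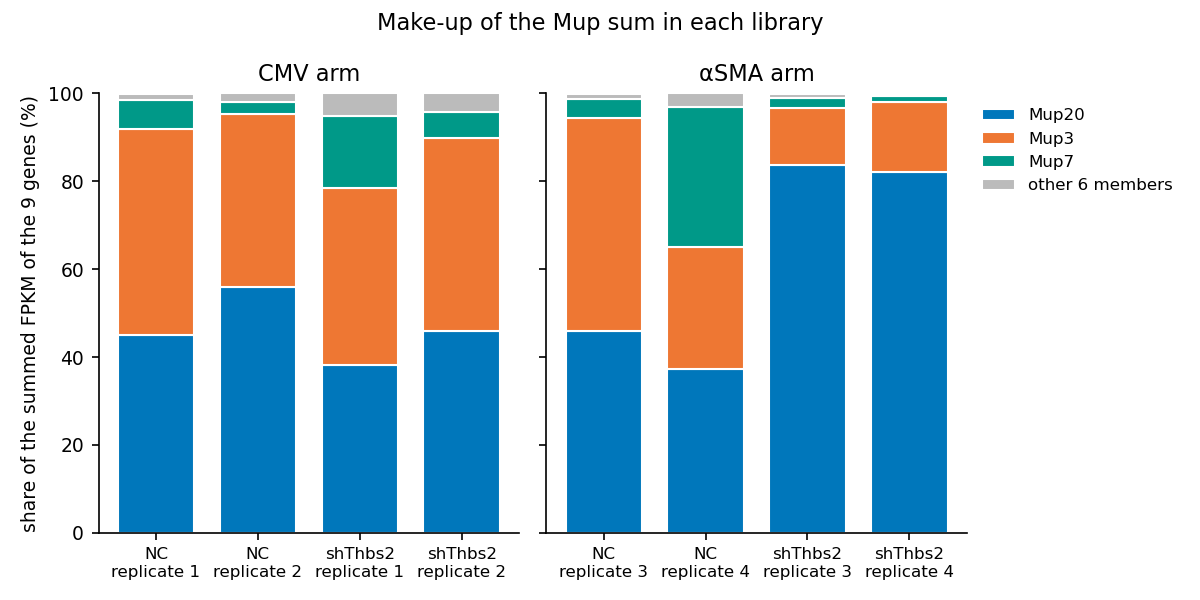
Share (%) of the summed FPKM of the 9 Mup genes held by Mup20, Mup3, Mup7 and the other 6 genes in each of the 8 libraries. In the αSMA arm Mup20 held 83.8% and 82.2% with shThbs2 against 45.97% and 37.2% in the controls, while in the CMV arm the groups overlapped.

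The divergent genes and the near-identical genes were also summed as classes, the latter over all 16 near-identical Mup genes, since reads may move among them. This grouping was added after the values were seen. Among the CMV libraries the near-identical sum was 1835 and 368 FPKM in the controls and 6000.4 and 2971 with shThbs2, a 4.07-fold ratio (log2 change 2.36). Control replicate 2 lay far below control replicate 1, and the log2 change was 1.20 without replicate 2 and 3.52 without replicate 1. With the αSMA vector that sum was 31210 and 53869 FPKM in the controls and 17260.3 and 8960 with shThbs2, a 3.24-fold ratio of controls over knockdown (log2 change −1.72, between −2.19 and −1.25 when 1 library was left out). Neither arm's groups overlapped in this sum. The 4 divergent genes together were 1.88-fold higher with shThbs2 in the CMV arm and overlapped in the αSMA arm, at 11334 and 16755 FPKM in the controls and 18358 and 7762 with shThbs2.

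Beyond the 9, the tables hold 13 further protein-coding Mup genes, and 4 Mup pseudogenes are listed for the αSMA arm. Mup22 (ENSMUSG00000110439), which the CMV table lists under the older name Gm21320, was the most abundant of these, at 1219 and 223 FPKM in the CMV controls and 2731 and 1547 with shThbs2. Among the αSMA libraries it was at 16022 and 22234 in the controls and 8892 and 5533 with shThbs2. In the CMV arm 9 of the 13 were higher without overlap, beside 24.5% of all features tested, and 4 overlapped, with a median log2 change of 2.01. In the αSMA arm 8 were lower, beside 46.2% of all features tested, 1 was higher (Mup4, at no more than 0.06 FPKM) and 4 overlapped. The αSMA median was −1.60. Most of the 13 are near-identical genes, among which reads may move, so these counts are not separate from those of the 9. The pseudogene Mup-ps19, which shares windows with Mup20, was at 4.07 and 13.7 FPKM in the αSMA controls and 22.5 and 20.5 with shThbs2. All Mup rows together made up 4.52% and 7.65% of the FPKM sum in the αSMA controls and 2.84% and 1.37% with shThbs2, and in the CMV arm 1.00% and 0.497% against 2.27% and 1.45%.

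**Figure D4:**
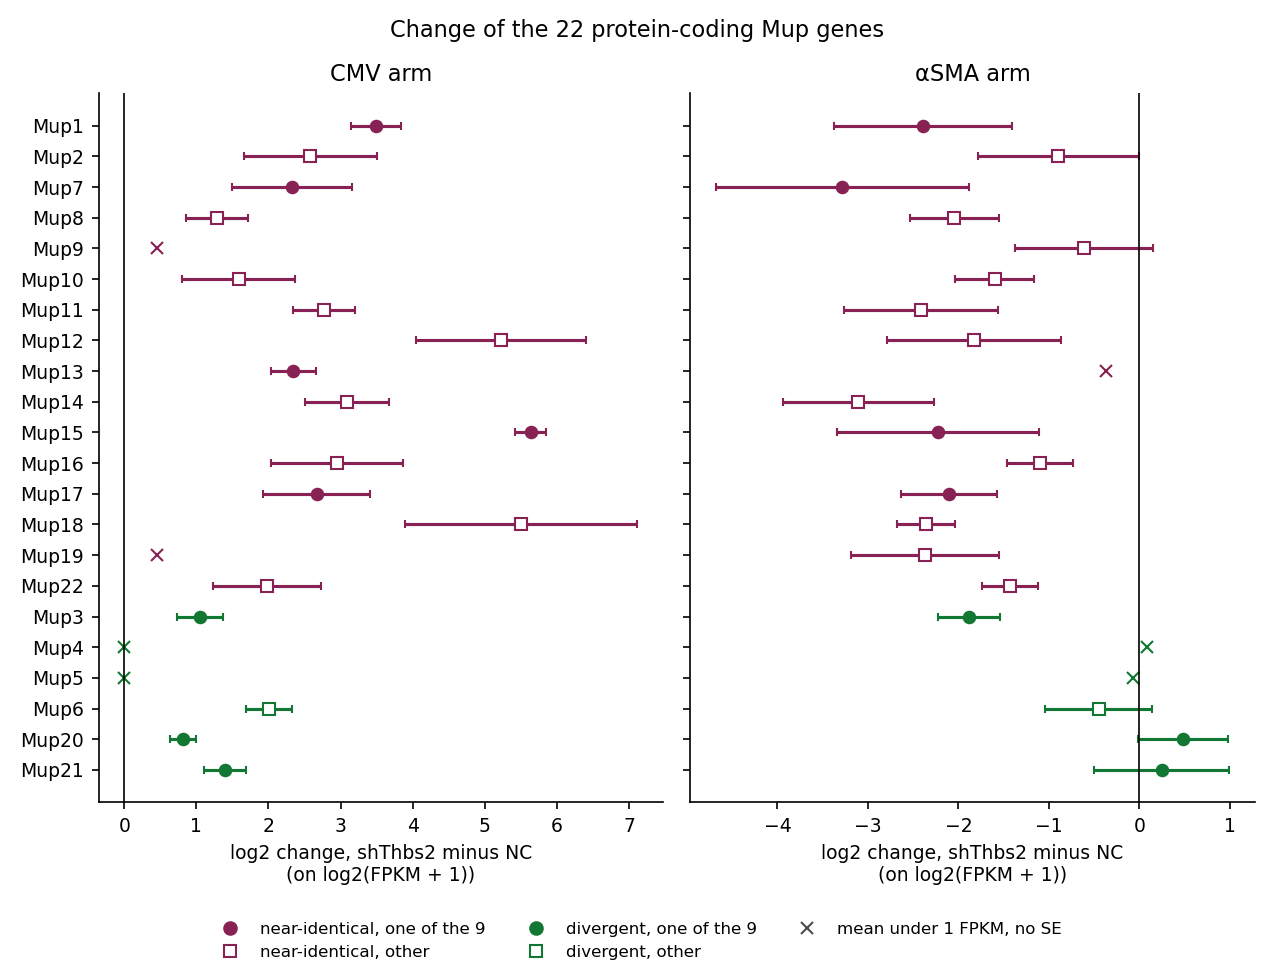
Log2 change, shThbs2 minus NC on log2(FPKM + 1), of the 22 protein-coding Mup genes in each arm, with bars of 1 limma SE, filled circles for the 9 genes described here and crosses for genes under a mean of 1 FPKM. The near-identical genes (purple) lie at or above 0.45 in the CMV arm and at or below −0.36 in the αSMA arm, and in the αSMA arm the divergent genes (green) range from −1.88 for Mup3 to 0.48 for Mup20.

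Within groups most Mup genes were higher in the same library. With the CMV vector 15 of the 16 near-identical genes were higher in control replicate 1 than in control replicate 2, and 16 of 16 were higher in shThbs2 replicate 1 than in replicate 2. With the αSMA vector 15 of 16 were higher in control replicate 4 than in control replicate 3, and 16 of 16 in shThbs2 replicate 3 than in replicate 4. The divergent genes had the same library on top wherever the pair differed, for 4 of 4 genes in each CMV group and 5 of 5 in each αSMA group. Reads may move among the near-identical genes, so their counts are not separate observations. The share of all features higher in the same library was not taken, and nothing is read from these counts.

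The regulators and relatives of the Mup genes were followed as 7 lists of 122 genes, chosen with earlier results known. Among the CMV libraries limma tested 101 of them and called 0 at an adjusted p under 0.05, while over all features it called 2, with 1113 at an unadjusted p under 0.05. The list call numbered 26 without control replicate 1, 10 without control replicate 2, and 2 without either shThbs2 library. Among the αSMA libraries it tested 98, of which 8 rose and 27 fell, or 35.7% called beside 36.1% of all features, so the count is no result about these lists. Over all features 13.3% rose and 22.8% fell, the shares to set beside the αSMA count of each list below. That count of 35 became 4 when control replicate 3 was left out, 3 when control replicate 4 was and 19 when shThbs2 replicate 3 was.

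Male-biased liver genes share with the Mup genes their dependence on pulsed growth hormone. In the CMV arm 14 of 15 tested were higher by value, with a median log2 change of 0.62 and 0 past the threshold. Of the 15, 11 were higher without overlap, beside 24.5% of all features. The fatty acid elongase gene Elovl3 was at 5.16 and 1.77 FPKM in the controls and 43.5 and 21.8 with shThbs2 (log2 change 2.95, SE 0.45, limma adjusted p = 0.158). Cyp4a12b, an arachidonic acid hydroxylase gene with a close paralog, was at 1.81 and 1.23 FPKM against 8.60 and 7.80 (1.87, SE 0.17, adjusted p = 0.0853). In the αSMA arm the list had a median of −0.84, with 1 of 14 falling and 2 rising. Without control replicate 4 that median was −0.11, and without shThbs2 replicate 4 it was −0.46. Cyp4a12b fell from 6.78 and 22.1 FPKM to 2.91 and 1.12 (−2.22, SE 0.57, limma adjusted p = 0.0357). Nudt7, a peroxisomal coenzyme A hydrolase gene, rose from 12.6 and 30.6 FPKM to 237 and 109.6, and Cyp2u1 rose by 1.02 on the log2 scale (limma adjusted p = 0.0155 and 0.0265). Without control replicate 3, control replicate 4 or shThbs2 replicate 3, 0 of the 14 were called.

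Female-biased liver genes gave the opposite signs in the CMV arm. There 11 of 15 were lower by value, with a median of −0.31 (−0.15 without control replicate 2) and 0 past the threshold. Of the 15, 8 were lower without overlap, beside 17.5% of all features. The steroid hydroxylase gene Cyp17a1 was at 40.7 and 26.3 FPKM in the controls and 8.43 and 7.06 with shThbs2 (−1.95, limma adjusted p = 0.0947). With the αSMA vector 3 of 14 rose and 0 fell, around a list median of 0.08 that was −0.27 at the same FPKM sum, −0.01 without control replicate 4 and −0.21 without shThbs2 replicate 4. Cyp2a4, a steroid hydroxylase gene with the close paralog Cyp2a5, rose from 23.1 and 2.02 FPKM to 1457 and 971 (7.12, SE 0.95, limma adjusted p = 0.00927). Cyp2b9 rose from 4.62 and 0.02 FPKM to 35.2 and 54.5 (4.23, limma adjusted p = 0.0173), and Hamp2, a paralog of the iron hormone gene Hamp, rose by 3.82 on the log2 scale (limma adjusted p = 0.0134). At the same FPKM sum 3 rose and 3 fell. The list gave 1 rise without control replicate 4, 0 without shThbs2 replicate 3 and 1 without shThbs2 replicate 4.

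Growth hormone signalling was nearer its control level in the CMV arm, with a median of 0.14 over 13 genes (0.05 without control replicate 2). Ghr, the growth hormone receptor gene, was at 63.3 and 51.1 FPKM in the controls and 95.8 and 77.3 with shThbs2 (0.59, limma adjusted p = 0.373). Stat5b, whose product carries the hormone's signal to DNA, was at 12.6 and 9.25 against 11.6 and 13.9, which overlapped. Among the αSMA libraries 4 of 13 fell and 1 rose, with a median of −0.43. Socs2, a feedback inhibitor gene that STAT5 switches on, fell from 7.84 and 8.65 FPKM to 2.46 and 2.97 (−1.32, SE 0.16, limma adjusted p = 0.00798). The phosphatase genes Ptpn11 and Ptpn1 fell by 1.25 and 0.71 on the log2 scale (limma adjusted p = 0.0122 and 0.0208), and Igfbp3, which encodes a carrier of IGF-1, rose by 0.96 (0.0266). Without either control library 0 of the 13 were called, and at the same FPKM sum 9 fell and 0 rose.

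The hepatocyte transcription factor and hormone receptor list had a median of 0.003 in the CMV arm, and −0.03 with median centring or at the same FPKM sum. Its smallest p there was that of Cebpb, at 73.4 and 63.9 FPKM in the controls and 127 and 144 with shThbs2 (0.97, limma adjusted p = 0.137). In the αSMA arm 6 of 19 fell and 0 rose, beside 22.8% of all features lower, with a median of −0.29. Zhx2, a repressor of several liver genes whose product is known to affect Mup expression, fell from 5.13 and 5.71 FPKM to 1.24 and 1.57 (−1.42, SE 0.17, limma adjusted p = 0.00765). Foxa3 fell by 1.00, the glucocorticoid receptor gene Nr3c1 by 0.70 and the lipid sensor gene Ppara by 0.64 on the log2 scale (limma adjusted p = 0.0124, 0.0349 and 0.0337). With median centring 2 fell, at the same FPKM sum 15, and without either control library 0.

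Glucocorticoid and thyroid hormone targets were higher by value in 10 of 12 cases in the CMV arm, with a median of 0.64 and 0 past the threshold. Tat, a glucocorticoid-induced tyrosine aminotransferase gene, was at 622 and 702 FPKM in the controls and 1041 and 1074 with shThbs2 (0.68, limma adjusted p = 0.199). With the αSMA vector 4 of 12 fell and 2 rose, with a median of 0.15 that was −0.26 at the same FPKM sum and −0.07 without control replicate 3. The glucocorticoid targets Per1, Fkbp5 and Dusp1 fell by 0.94, 0.91 and 1.30 on the log2 scale (limma adjusted p = 0.0111, 0.0159 and 0.0189). Thrsp, a thyroid hormone responsive gene of lipogenesis, rose from 4.86 and 7.51 FPKM to 457 and 67.0 (4.64, SE 0.87, limma adjusted p = 0.0175). Without either control library 0 of the 12 were called.

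Other lipocalins, the wider protein family of the MUPs, had a median of 0.25 in the CMV arm (0.49 without control replicate 1). Their αSMA median was −0.24, but 0.08 without shThbs2 replicate 4, −0.02 with median centring and −0.65 at the same FPKM sum. Lcn2, an iron-siderophore binding lipocalin gene, was at 282 and 301 FPKM in the CMV controls and 108 and 134 with shThbs2 (−1.27, limma adjusted p = 0.0947). Among the αSMA libraries 1 of 8 fell, Apom, which encodes a lipocalin of high-density lipoprotein, from 203 and 199 FPKM to 87.4 and 85.0 (−1.21, SE 0.15, limma adjusted p = 0.00802). That call was lost without control replicate 3 (limma adjusted p = 0.0931) or control replicate 4 (0.107). Acute phase genes, secreted in bulk by the same hepatocytes, had a median of 0.09 in the CMV arm (−0.03 without control replicate 2), where Saa1 was at 116 and 53.1 FPKM against 345 and 572 (2.48, limma adjusted p = 0.158). In the αSMA arm 11 of 21 fell and 0 rose, beside 22.8% of all features lower, with a median of −0.83. Saa1 fell from 739 and 684 FPKM to 78.6 and 76.9 (−3.18, SE 0.15, limma adjusted p = 0.00187), Saa2 fell by 2.88, and the fibrinogen genes Fga and Fgg fell by 2.22 and 1.57 on the log2 scale. The 11 became 1 without control replicate 3 and 2 without control replicate 4. Beside these lists, macrophage marker Cd68 of the αSMA arm fell from 64.2 and 68.7 FPKM to 17.96 and 22.1 (limma adjusted p = 0.00644). Of the 7 macrophage markers 2 fell and 1 rose, beside 22.8% of all features lower and 13.3% higher. Their sums overlapped, at 283 to 450.0 FPKM in the controls and 299 to 305 with shThbs2. Their part in the acute phase values was not tested.

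**Figure D5:**
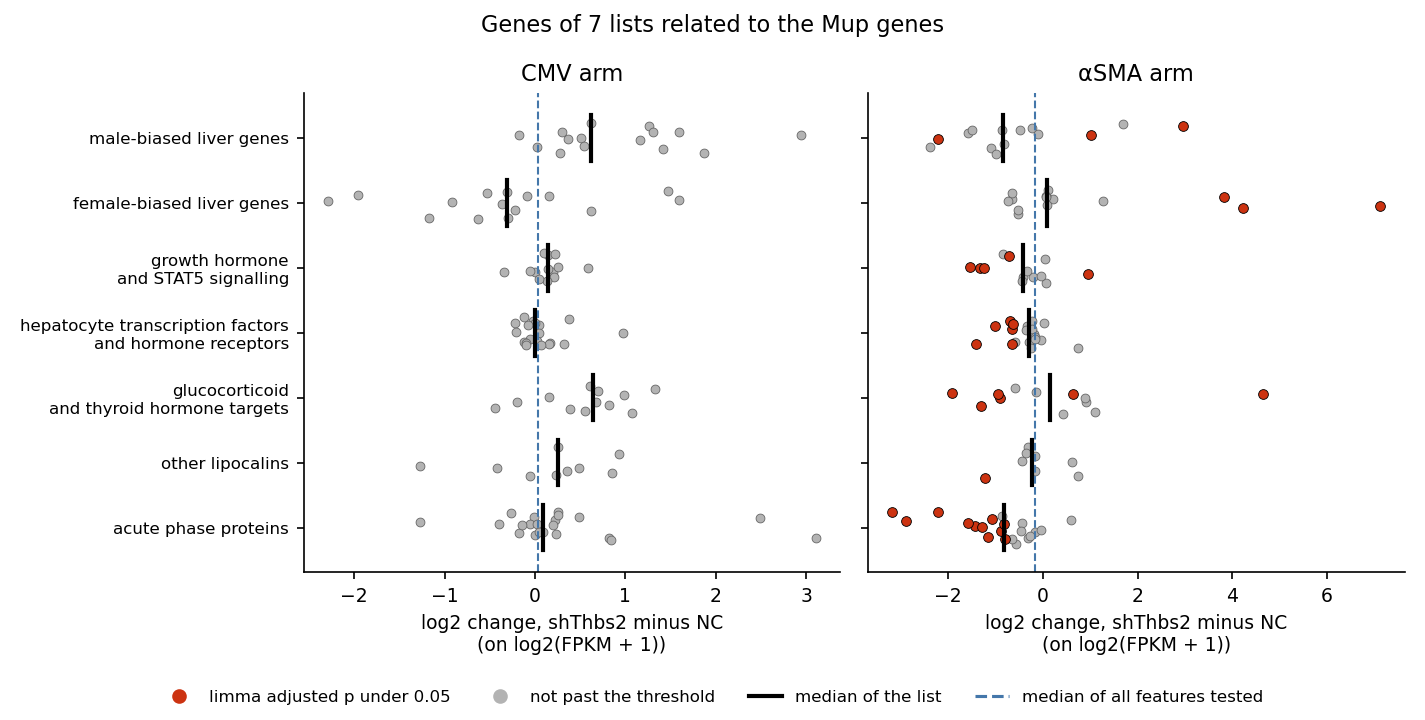
Log2 change, shThbs2 minus NC on log2(FPKM + 1), of each tested gene of the 7 lists, in red where limma's adjusted p was under 0.05, with black bars at list medians and a dashed line at the median of all features. The CMV arm has 0 red points and a male-biased median of 0.62, and the αSMA arm has 35, with an acute phase median of −0.83.

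Genes next to the cluster were read as a property that the choice of genes did not use. With the CMV vector 7 of the 10 nearest protein-coding genes were tested and 0 called, with log2 changes from −0.22 for Cdc26 to 0.35 for Hsdl2. With the αSMA vector 9 were tested, and Hsdl2 rose by 0.71 while Snx30 fell by 0.89 and Cdc26 by 0.75 on the log2 scale (limma adjusted p = 0.0439, 0.0180 and 0.0320). The share called, 33.3%, was near the 36.1% of all features. These 3 calls became 0 without control replicate 3, control replicate 4 or shThbs2 replicate 3.

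The genes with the profile most like the Mup sum were picked by root mean square difference of log2(FPKM + 1) over the 8 libraries, centred within each arm, among 6107 genes with a mean of at least 5 FPKM in both arms. They were Egfr (0.278), Srd5a1 (0.312), Ces3a (0.312), C6 (0.318), Ugt2b1 (0.334) and C8b (0.342), where the Mup sum's own spread was 0.639. Egfr, the receptor gene for epidermal growth factor, was at 24.5 and 21.6 FPKM in the CMV controls and 46.4 and 35.3 with shThbs2. Among the αSMA libraries it was at 51.4 and 83.0 in the controls and 45.1 and 28.1 with shThbs2, with control replicate 4 highest, as for Mup7. C6 and Ugt2b1 belong to the male-biased list. The likeness is a description of 8 libraries and of genes picked for it.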

How the data were processed

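Poly(A) RNA of 8 liver libraries was sequenced, per the labels' protocols. The authors deposited FPKM values, 1 table per arm, normalised separately. The submitters' processing notes name Bowtie2 2.3.5, HISAT2 2.1.0, HISAT, Cufflinks and the build GRCm38, without saying which belongs to which arm. Counts are not part of these files. Low values showed no clear steps (fullest step 1.15% of 1304 features in the CMV arm and 11.4% of 3069 in the αSMA arm, which is rounded), so the depth is unknown and intervals for counting error could not be made.

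The 9 Mup genes and the gene lists were chosen with earlier results of these data known. Each arm was fitted alone on log2(FPKM + 1), which understates changes of low genes, with limma 3.58.1 in R 4.3.3 (empirical Bayes with trend, two-sided, 2 residual degrees of freedom) over the features whose 4 libraries averaged 1 FPKM or more. Adjusted p-values follow Benjamini and Hochberg over all of these, with a threshold of 0.05. The fit was tested on simulated data. SE values of Mup genes come from this fit. The series text speaks of separate mice; if libraries shared an animal, the p-values cover technical spread alone.

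Mup rows number 22 in the CMV arm and 26 in the αSMA arm, matched by Ensembl identifier. Coding identity came from global alignment (Biopython 1.88) of GENCODE M21 coding sequences, used in place of the planned protein identity, and windows were compared with the transcripts of all other genes. Promoters are RefSeq's (GRCm38.p6). Named genes are the 9, other Mup rows, up to 4 genes per list with the smallest p, Thbs2, Y-linked genes and the 6 most alike; flanking genes, Cd68 and Mup4 were named after their values were seen. Tried beside these were 3 rescalings, a pseudocount of 0.1, leaving out the filter or raising it to 5 FPKM, a replicate block, 50-base windows, all Mup rows and leaving out each library.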

Additional observations from a re-analysis of the deposited data

Results flagged for a closer look

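For the genes and sums that follow, every shThbs2 library lay on one side of both controls in the CMV arm and on the other side in the αSMA arm. The values are the log2 change of the CMV arm minus that of the αSMA arm, and this difference was not tested. The arms also differ in sequencer and company, which cannot be told apart from the vector.

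Of the 9 Mup genes, 6 were higher in the CMV arm and lower in the αSMA arm in this way, as were 9.03% of the 10245 genes tested in both arms, with 3.47% the other way round. The 9 were selected with both contrasts known, so nothing is read from the difference of these shares. The difference was 7.86 for Mup15, 5.88 for Mup1, 5.61 for Mup7, 4.77 for Mup17, 2.94 for Mup3 and 2.71 for Mup13. All of these but Mup3 are near-identical genes, among which reads may move, so their single values are uncertain. The difference was 4.08 for the sum of the near-identical Mup genes and 2.56 for the sum of all Mup rows.

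List genes appear here only if named for a small p and if their groups lay apart in opposite directions, so the signs do not describe the lists. Among male-biased genes picked in this way it was 4.09 for Cyp4a12b and 2.93 for Ugt2b38. Male-biased Nudt7 was not among them, with log2 changes of 1.31 in the CMV arm and 2.97 in the αSMA arm. The female-biased genes picked were at −6.52 for Cyp2b9, −3.22 for Cyp17a1 and −1.33 for Cyp3a44. The signal carrier Stat5a gave 0.40. Among transcription factors and receptors it was 1.15 for Cebpb, 1.02 for Ppara, 0.65 for Hnf4a and −0.95 for the bile acid receptor gene Nr1h4. The glucocorticoid target Zbtb16 gave 1.90. Acute phase genes gave 5.99 for Saa2, 5.66 for Saa1, 2.47 for Fga and 1.77 for Fgg.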

How the results depend on the processing

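Each alternative changed 1 choice. Among values of single genes, 74 lost the threshold, 42 passed it, 8 moved further than the spread and 635 had no such label. Mup genes were judged only by their spread, and list genes only by the threshold. The Mup log2 changes with a replicate block equal the reported ones, so that setting shows nothing about them. The 635 include Mup7 of the αSMA arm without control replicate 4, where −3.28 became −1.29, within its spread of 2.26. They are therefore not a count of stable values. The sign changed in 1 of the 8 and 7 of the 635, for Mup21, Mup20, Mup5 and Orm2 of the αSMA arm. None of these genes was called in the fit as reported, where Mup5 was untested. It also changed for the αSMA family sum without control replicate 4 (0.03) or shThbs2 replicate 4 (0.11). With no filter on low values the genes called numbered 0 in the CMV arm (2 as reported) and 1843 in the αSMA arm (4691), the 7 lists held 16 αSMA calls (35) and the flanking genes 0 (3). At the same FPKM sum the αSMA lists held 60 calls and the flanking genes 5. The median share of windows of a gene's own was 38.38% with 50-base windows and 44.32% with 100. Over all features tested, same-numbered libraries did not deviate together (r = 0.04 in the CMV arm and 0.00134 in the αSMA arm). With 2 libraries a group this cannot show whether the numbers pair the samples. With a replicate block 17 genes and 4 list genes were called in the CMV arm, beside 2 and 0 without it. Leaving out 1 library gave, in the CMV arm, 5 to 206 genes called, 2 to 26 list genes, 0 flanking genes and a member median of 1.30 to 2.85. In the αSMA arm it gave 59 to 4355 genes, 3 to 30 list genes, 0 to 2 flanking genes and a member median of −2.36 to −0.48. The family sum ranged from 0.74 to 1.43 (CMV) and −1.15 to 0.11 (αSMA) on the log2 scale. The sum of near-identical genes, chosen after seeing the data, ranged from 1.20 to 3.52 and −2.19 to −1.25. A group left with 1 library was assumed to vary like the other group. With 2 libraries a group and unknown depth, small differences were not detectable. The causes of these shifts were not tested.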

Other observations

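Other genes with profiles like the Mup sum were liver enzymes and complement genes. Ces3a, a carboxylesterase gene, was at 415 and 272 FPKM in the CMV controls and 649.7 and 517 with shThbs2, and at 501 and 579.9 in the αSMA controls and 379 and 205 with shThbs2. C8b, a complement gene, was at 82.8 and 55.4 FPKM against 104 and 99.7 in the CMV arm, and at 64.1 and 108 against 49.7 and 29.1 in the αSMA arm. Neither gene's groups overlapped in either arm. Srd5a1, a steroid reductase gene, was at 14.3 and 10.9 against 22.8 and 23.5 FPKM in the CMV arm, and overlapped in the αSMA arm.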
